A study of Mus musculus with 12 samples.

Results

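The proteasome genes of the mouse were described in 12 bulk RNA-seq libraries of an Srsf10 study. The members were all genes whose symbol has the form Psma, Psmb, Psmc, Psmd, Psme, Psmf or Psmg followed by a number, which gave 48 genes of the 34102 in the deposited count table. They comprised 8 alpha and 7 beta subunits of the core particle, 4 beta subunits of the immunoproteasome and thymoproteasome, 6 ATPases and 11 other subunits of the regulatory particle, 3 assembly chaperones that carry Psmd names, 5 activators and inhibitors (Psme1 to Psme4 and Psmf1) and 4 core assembly chaperones (Psmg1 to Psmg4). Srsf10 encodes an SR-family splicing regulator.

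The proteasome is the main machine of regulated protein breakdown in the cytosol and nucleus. Its core is a barrel of stacked rings: the outer alpha rings gate the entry and the inner beta rings carry the proteolytic sites. The regulatory particle caps the barrel, binds ubiquitin chains, removes them and threads the substrate in with a ring of ATPases, whereas the Psme activators open the same gate without ATP. In growing progenitors the proteasome turns over cyclins and many transcription factors, and in immune cells exchanged beta subunits shape the peptides shown on class I molecules.

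In all, 4 groups of 3 libraries were compared, all of strain C57BL/6. The cortex groups were mice labelled Srsf10 flox/flox with Nestin-Cre (cKO) and Srsf10 flox/flox mice without it (control), so the controls carry the floxed alleles too; Nestin-Cre acts in neural progenitors and their offspring, and the other cells of the cortex should keep the gene. The labels used here give no age and do not say whether animals were pooled. The culture groups were primary neural progenitor cells (NPC) from cortex, grown in suspension with bFGF and EGF, labelled SRSF10 knockdown and WT (control). The knockdown used a lentivirus at a multiplicity of infection of 30 with harvest 72 h later; what the control cells received is not spelled out in the labels. NPC libraries with the same number deviated together and were treated as pairs.

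Library totals were 26074094 to 36713205 counts, of which the members made up 0.508 to 0.612% in NPC and 0.418 to 0.485% in cortex. The gene-level counts did not show a loss of the targeted gene: Srsf10 stood at 239, 220 and 217 CPM (counts scaled to the library size, by TMM) in libraries labelled knockdown and 249, 227 and 223 CPM in NPC control, and at 223, 187 and 224 CPM in libraries labelled cKO and 198, 220 and 202 CPM in cortex control, with adjusted p of 0.530 in NPC and 0.917 in cortex (edgeR). Reads of single exons were not analysed here. The tissue labels were read against marker sums. The 5 neuronal genes summed to 7303 to 7585 CPM in cKO and 7478 to 7559 CPM in control cortex. In NPC they summed to 17.7 to 21.0 CPM in knockdown and 21.4 to 25.4 CPM in control. The 5 progenitor genes summed to 5519 to 6695 CPM in knockdown and 5781 to 6008 CPM in control NPC, mostly from Vim and Nes. In cortex they summed to 377 to 409 CPM in cKO and 356 to 425 CPM in control. Vim, Nes and Sox2 were higher in NPC, and Pax6 overlapped between cortex and NPC. Hes5 went the other way, at 15.0 to 19.4 CPM in cortex and 2.51 to 14.6 CPM in NPC. The cortex libraries cKO 3 and control 2 held the choroid plexus transcript Ttr at 1082 and 1194 CPM, against at most 100 CPM in the other cortex libraries. In bulk RNA, fewer cells of a type and less RNA per cell cannot be told apart.

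In knockdown NPC one member stood far apart from the others. Psme3, which encodes the nuclear activator also called REG gamma, fell to 76.5, 69.8 and 74.5 CPM in knockdown libraries 1, 2 and 3, against 187, 176 and 179 CPM in their paired controls. Every knockdown library was lower than every control library, and the groups were separated by a gap wider than the spread within either. The paired log2 fold change was -1.30 ± 0.05 (SE, 95% interval -1.40 to -1.19, edgeR quasi-likelihood test, adjusted p = 1.32e-08), a level 2.46 times lower than in control, and the 3 pairs gave -1.29, -1.33 and -1.27. Without the pairs the log2 fold change was again -1.30 (edgeR adjusted p = 0.000893). The gene lies at chr11:101316213-101323537 on the plus strand of mm10 and overlaps no other annotated gene.

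In cortex the same gene did not separate the groups. Psme3 had 81.8, 92.5 and 92.0 CPM in cKO cortex and 88.1, 87.8 and 93.4 CPM in control cortex, with a log2 fold change of -0.02 ± 0.07 (SE, edgeR adjusted p = 0.962). The cKO and control values interleaved. The difference between the 2 systems, tested as an interaction over all 12 libraries, was -1.27 on the log2 scale (edgeR adjusted p = 3.02e-05). It was the single member of 47 tested with a called difference between NPC and cortex, where 5.05% of all genes were called. Psme4 came next at -0.41 (edgeR adjusted p = 0.0864). The 47 include Psmb8, Psmb9 and Psmg1, which failed the filter on low counts in cortex, and Psma8, which failed it in NPC. Psmb6 also had few cortex counts. For these members the test could hardly call a difference, so the lack of a call does not show a like response.

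**Figure D1:**
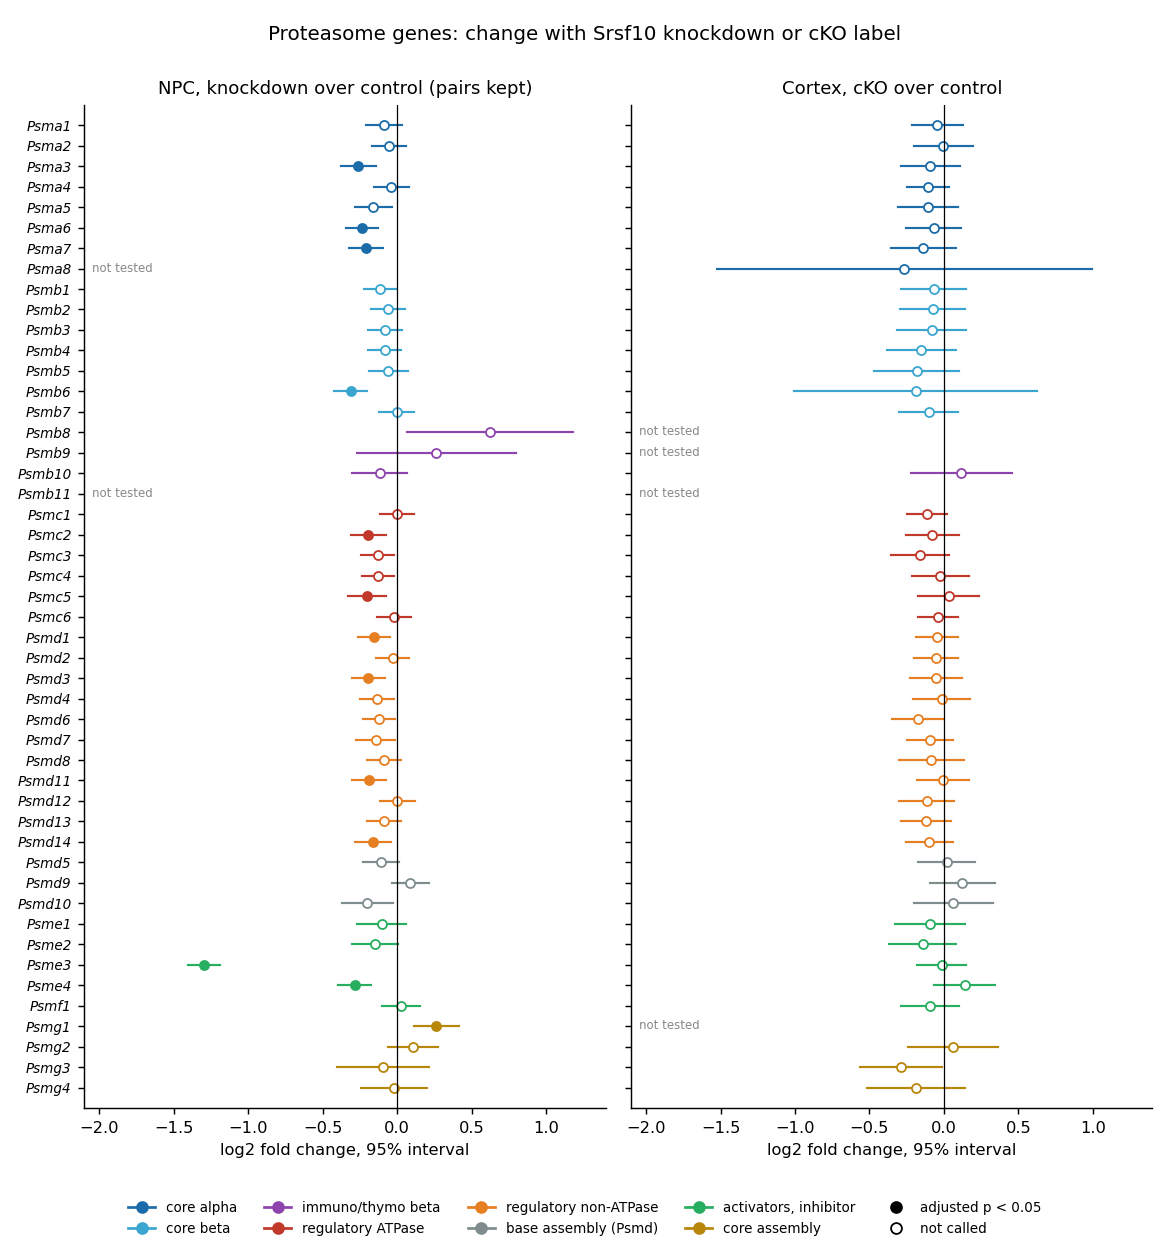
Log2 fold change of each member with its 95% interval, knockdown over control in NPC (left, pairs kept) and cKO over control in cortex (right); filled points have an edgeR adjusted p under 0.05 and colours mark the classes. Psme3 lies at -1.30 in NPC, apart from all others, while 0 of 44 tested members are filled in cortex.

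Across all members the NPC difference was small and leaned one way. Of 46 members that passed the filter on low counts, 12 fell and 1 rose with the pairs kept, against 12.8% of all tested genes called lower and 11.9% called higher. No test of the list was made. The median log2 fold change of the tested members was -0.10, against 0.003 for all 14258 tested genes. Of the 46 members 39 were negative, and of all tested genes 7031. Knockdown and control libraries did not overlap in 14 members that were lower and 1 that was higher. Such separation was common: of all 14258 tested genes, 1820 were apart and lower and 1514 apart and higher. The calls depended on the pairs: without them 2 members were called lower, Psme3 and Psmb6, and 0 higher, where 1.54% of genes were called lower. Some marker sums also differed between the NPC groups without overlap. The astrocyte list (5 genes) summed to 2039 to 2253 CPM in knockdown and 1855 to 1921 CPM in control NPC, the oligodendrocyte-lineage list (5 genes) to 2877 to 2928 CPM in knockdown and 2740 to 2769 CPM in control NPC, the vessel list (5 genes) to 9.38 to 11.01 CPM in knockdown and 15.2 to 20.0 CPM in control NPC, and the neuronal list to 17.7 to 21.0 CPM in knockdown and 21.4 to 25.4 CPM in control NPC. Single genes did not all follow their sum. Olig1 and Olig2 made up most of the oligodendrocyte-lineage sum, and Flt1 most of the vessel sum. Pdgfra had 50.7, 12.1 and 7.70 CPM in knockdown and 61.5, 22.1 and 12.5 CPM in control NPC. With pairs, edgeR called 0 oligodendrocyte-lineage genes higher and 1 lower, and 2 astrocyte genes higher and 1 lower. It called 1 vessel gene lower and 0 neuronal genes. Of the 5 progenitor genes, whose sums overlapped between the NPC groups, it called 1 higher and 1 lower. Sox2 had 245, 198 and 185 CPM in knockdown and 299, 289 and 293 CPM in control NPC, without overlap. The part of these lists in the member values was not tested.

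The 3 pairs did not contribute alike. The median difference of the members was -0.14 in pair 1, -0.14 in pair 2 and -0.005 in pair 3 on the log2 CPM scale. In the knockdown library of each pair, 41, 40 and 23 of the 46 members were lower, against 7054, 7098 and 7079 of all 14258 tested genes. In all, 23 members were lower in all 3 pairs and 3 were higher in all 3. Of all 14258 tested genes, 26.6% were lower in all 3 and 3873 were higher in all 3. Pair 3 was also the male pair, with Ddx3y at 90.9 and 84.3 CPM against at most 0.294 CPM in the other NPC libraries; the part of sex in this was not tested. Leaving out pair 2 reduced the calls to 3 (Psmb6, Psme3 and Psme4), whereas 14 and 11 were called without pair 1 and without pair 3. The share of all genes called in either direction was 15.2% without pair 2, 30.4% without pair 1 and 11.4% without pair 3, against 24.7% with all pairs.

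**Figure D2:**
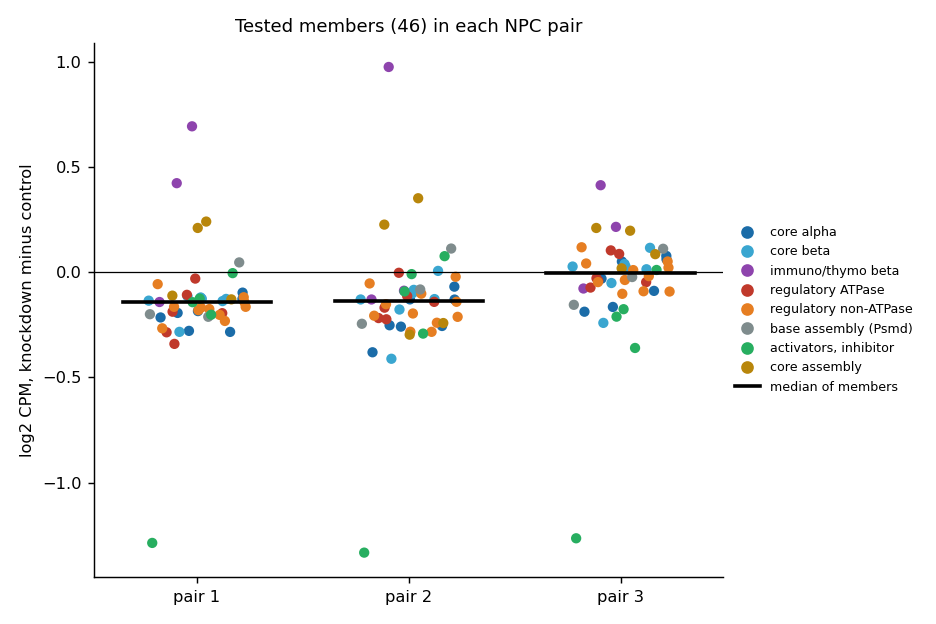
Log2 CPM of the knockdown library minus its paired control for the 46 tested members in each of the 3 NPC pairs, coloured by class, with the median as a black bar. The members centre at -0.14 in pairs 1 and 2 and at -0.005 in pair 3, and Psme3 lies near -1.3 in all 3 pairs.

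Among the core particle genes, 4 of 14 tested fell in knockdown NPC and 0 rose. Over all tested genes 12.8% were called lower and 11.9% higher. Psmb6 encodes beta1, the subunit with caspase-like activity. It had 145, 138 and 149 CPM in knockdown NPC and 177, 184 and 176 CPM in control NPC, so that the groups did not overlap. Its log2 fold change was -0.31 ± 0.05 (SE, edgeR adjusted p = 0.000715 with pairs and 0.0468 without). The unpaired call did not survive the loss of any 1 library, with edgeR adjusted p between 0.0631 and 0.201.

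The 3 alpha-ring genes that fell were Psma3, Psma6 and Psma7. Psma3 had 122, 110 and 124 CPM in knockdown NPC and 142, 144 and 142 CPM in control NPC, a log2 fold change of -0.26 ± 0.05 (SE, edgeR adjusted p = 0.00325). Psma6 had 128, 132 and 141 CPM in knockdown NPC and 155, 158 and 159 CPM in control NPC, a log2 fold change of -0.23 ± 0.05 (SE, edgeR adjusted p = 0.00398). For both, the lowest control library lay above the highest knockdown library. Psma7 had 123, 128 and 146 CPM in knockdown NPC and 149, 153 and 155 CPM in control NPC, with a log2 fold change of -0.21 (edgeR adjusted p = 0.0123); again the groups did not overlap, though knockdown library 3 came within a few CPM of the controls. Without pairs the edgeR adjusted p was 0.0988 for Psma3, 0.108 for Psma6 and 0.225 for Psma7, so none of the 3 was called.

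The other catalytic subunits lay nearer to 0 than beta1. Psmb5, the chymotrypsin-like subunit beta5, had 39.8, 43.3 and 47.1 CPM in knockdown NPC and 43.3, 46.4 and 45.8 CPM in control NPC, with a log2 fold change of -0.06 and a 95% interval of -0.19 to 0.07. Psmb7, the trypsin-like subunit beta2, had 184, 217 and 220 CPM in knockdown NPC and 201, 216 and 203 CPM in control NPC, with an interval of -0.12 to 0.12 around a log2 fold change of -0.0015. In both genes knockdown libraries lay on either side of the controls. The difference between Psmb6 and these subunits was not tested. Psma4 was the alpha gene nearest to 0, at -0.04 (95% interval -0.16 to 0.08).

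In the regulatory particle, 6 of 17 tested genes fell in knockdown NPC and 0 rose, against 12.8% and 11.9% of all tested genes. The class median was -0.13 on the log2 scale. Of the called genes, 2 encode ATPases of the ring that unfolds the substrate. Psmc5 had 123, 139 and 154 CPM in knockdown NPC and 156, 162 and 159 CPM in control NPC (log2 fold change -0.20 ± 0.06 SE, edgeR adjusted p = 0.0245). Psmc2 had 122, 136 and 144 CPM in knockdown NPC and 148, 158 and 152 CPM in control NPC (log2 fold change -0.19 ± 0.05 SE, edgeR adjusted p = 0.0199). The other called members of the particle were Psmd3, Psmd11, Psmd1 and Psmd14.

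Psmd3 and Psmd11, scaffold subunits of the lid, gave near-equal values. Psmd3 had 192, 180 and 193 CPM in knockdown NPC and 221, 220 and 205 CPM in control NPC (log2 fold change -0.19 ± 0.05 SE, edgeR adjusted p = 0.0163). Psmd11 had 126, 123 and 138 CPM in knockdown NPC and 143, 150 and 148 CPM in control NPC (log2 fold change -0.19 ± 0.05 SE, edgeR adjusted p = 0.0186). Neither overlapped between groups. Psmd1, the large scaffold of the base, followed at -0.16 (edgeR adjusted p = 0.0333). Psmd14, the deubiquitinase that cuts chains off the substrate before it enters, also stood at -0.16 (edgeR adjusted p = 0.0488), with 127, 143 and 153 CPM in knockdown NPC and 150, 169 and 155 CPM in control NPC. Its groups overlapped. All 6 calls in the regulatory particle were lost without the pairs, with Psmd3 the nearest at an edgeR adjusted p of 0.163.

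Other genes of the regulatory particle lay on 0. The ATPase gene Psmc1 had 230, 259 and 271 CPM in knockdown NPC and 248, 260 and 252 CPM in control NPC, with a 95% interval of -0.12 to 0.11. Psmd12 had 132, 138 and 149 CPM in knockdown NPC and 138, 143 and 137 CPM in control NPC, with an interval of -0.11 to 0.12. Psmd2, the base scaffold and the member with the most counts, had a log2 fold change of -0.03 (95% interval -0.14 to 0.08). For these 3 genes the intervals exclude a fall as large as that of Psma3.

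The activators other than Psme3 showed a smaller difference in NPC. Psme4, the large HEAT-repeat activator linked to histone breakdown and DNA repair, had 120, 109 and 116 CPM in knockdown NPC and 138, 134 and 148 CPM in control NPC. No knockdown library reached the lowest control. Its log2 fold change was -0.29 ± 0.05 (SE, edgeR adjusted p = 0.00137 with pairs and 0.0861 without). In cortex the sign was opposite, with 165, 147 and 150 CPM in cKO and 120, 154 and 146 CPM in control (log2 fold change 0.14 ± 0.09 SE, edgeR adjusted p = 0.619). There control library 1 alone lay apart from the other 5.

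Psme1 and Psme2 encode the partner subunits of the interferon-inducible activator. Psme1 had 19.6, 22.1 and 20.5 CPM in knockdown NPC and 21.4, 22.3 and 23.2 CPM in control NPC, with a log2 fold change of -0.10 (95% interval -0.27 to 0.06). Psme2 had 22.3, 26.3 and 24.1 CPM in knockdown NPC and 24.6, 28.1 and 27.9 CPM in control NPC, with a log2 fold change of -0.15 (95% interval -0.30 to 0.0036). Both overlapped between groups, and both intervals exclude a change of the size seen for Psme3. In cortex, Psme1 had 51.8, 60.8 and 61.3 CPM in cKO and 69.1, 55.6 and 60.7 CPM in control, and Psme2 had 19.2, 19.3 and 18.9 CPM in cKO and 23.1, 20.7 and 19.6 CPM in control. Psme2 did not overlap between the cortex groups, at a log2 fold change of -0.14 (edgeR adjusted p = 0.648). Psme2 has a near copy, Psme2b, with 172 to 345 counts a library, and reads that fit both may have been split between them.

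Psmf1, the inhibitor of the core particle, had 35.3, 42.4 and 40.3 CPM in knockdown NPC and 35.4, 40.2 and 40.0 CPM in control NPC, with a log2 fold change of 0.03 (95% interval -0.10 to 0.16). In cortex it had 45.7, 40.6 and 42.6 CPM in cKO and 47.7, 42.6 and 47.3 CPM in control. The groups overlapped in both systems.

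**Figure D3:**
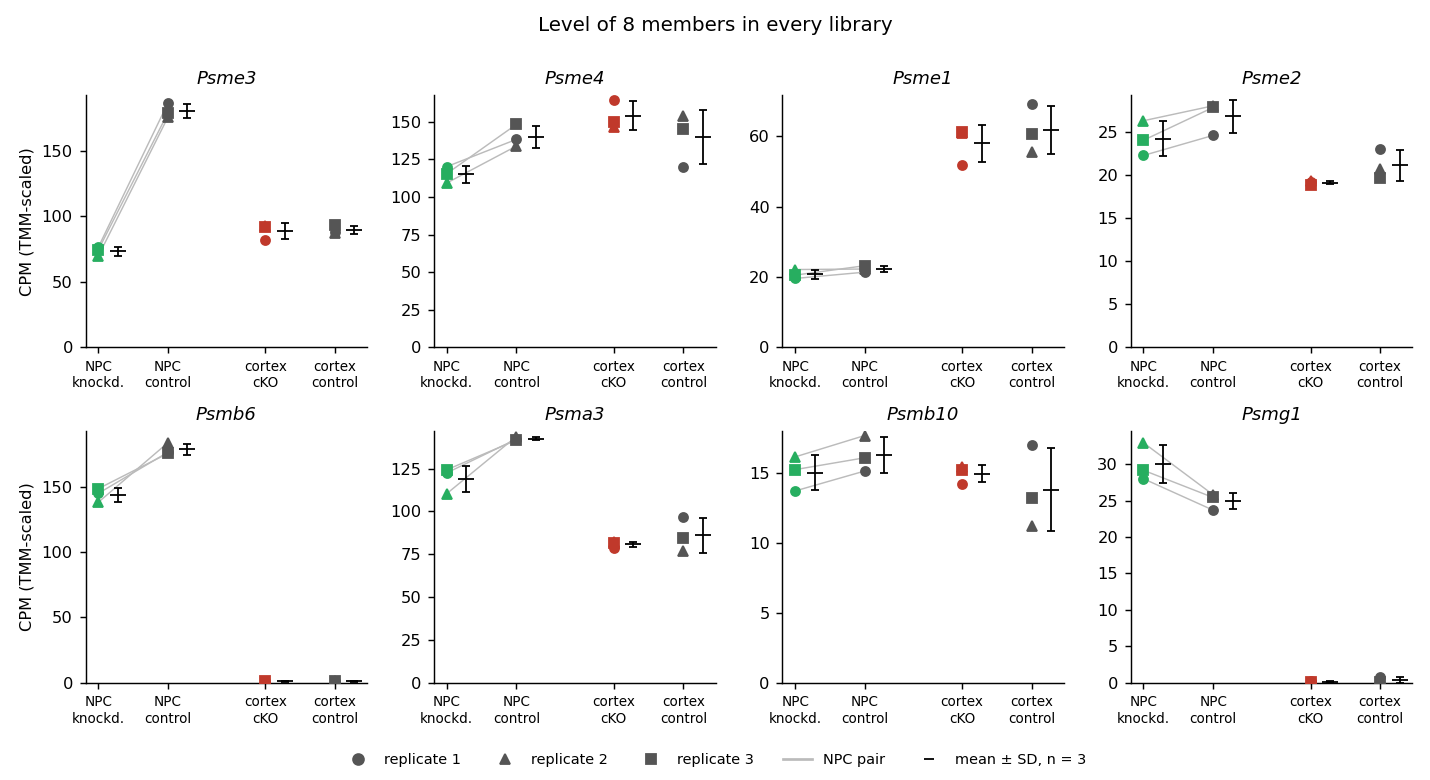
TMM-scaled CPM of Psme3, Psme4, Psme1, Psme2, Psmb6, Psma3, Psmb10 and Psmg1 in every library, with NPC pairs joined by grey lines and the mean ± SD of 3 libraries beside each group. Psme3 drops to 69.8 to 76.5 CPM in knockdown NPC against 176 to 187 CPM in control NPC and lies at 81.8 to 93.4 CPM in all cortex libraries, while Psmb6 and Psmg1 have almost no counts in cortex.

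The assembly genes held the one member that rose. Psmg1, a subunit of the chaperone pair that starts the alpha ring, had 28.0, 32.9 and 29.2 CPM in knockdown NPC and 23.7, 25.8 and 25.4 CPM in control NPC. All knockdown libraries lay above all controls. Its log2 fold change was 0.26 ± 0.07 (SE, edgeR adjusted p = 0.0140 with pairs and 0.183 without), and DESeq2 did not call it. Its partner Psmg2 had 28.8, 32.3 and 31.4 CPM in knockdown NPC and 31.2, 27.6 and 27.1 CPM in control NPC (log2 fold change 0.11, 95% interval -0.06 to 0.28). Psmg3, part of the second chaperone pair, had 4.44, 4.86 and 5.32 CPM in knockdown NPC and 4.87, 5.76 and 5.01 CPM in control NPC, and its partner Psmg4 had a log2 fold change of -0.02; both overlapped between groups.

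The chaperones of the regulatory base, Psmd5, Psmd9 and Psmd10, gave 0 calls in NPC. Psmd10, also known as gankyrin, had 16.8, 17.5 and 19.4 CPM in knockdown NPC and 19.3, 20.8 and 21.6 CPM in control NPC, with a log2 fold change of -0.20 (95% interval -0.37 to -0.03, edgeR adjusted p = 0.0848). Psmd9 was higher in all 3 pairs, with 45.1, 43.0 and 41.8 CPM in knockdown NPC and 43.7, 39.7 and 38.7 CPM in control NPC, at 0.09 (edgeR adjusted p = 0.305). The groups of both genes overlapped by a narrow margin.

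Of the immunoproteasome subunits, Psmb10 had the most counts in NPC, and Psmb8 and Psmb9 had few. Psmb10, the inducible form of beta2, had 13.7, 16.1 and 15.2 CPM in knockdown NPC and 15.1, 17.7 and 16.1 CPM in control NPC, and 14.2, 15.4 and 15.2 CPM in cKO and 17.0, 11.2 and 13.2 CPM in control cortex. Neither comparison separated the groups. Psmb8, the inducible beta5, rested on 57, 60 and 39 counts in knockdown NPC and 45, 25 and 31 counts in control NPC. It was higher in all 3 pairs, with a log2 fold change of 0.62 (95% interval 0.07 to 1.18) and an edgeR adjusted p of 0.0975. Psmb9, the inducible beta1, had 51, 63 and 51 counts in knockdown NPC and 33, 57 and 47 counts in control NPC (log2 fold change 0.26, edgeR adjusted p = 0.492). Counts this low leave wide intervals, which for Psmb9 ran from -0.27 to 0.80. Psmb11, the thymus beta subunit, had 0 to 4 counts in every library, and Psma8, the germ cell alpha subunit, had 0 to 2 counts in NPC and 7 to 15 counts in cortex.

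In cortex 0 of 44 tested members were called, by edgeR or by DESeq2, where edgeR called 0.171% and DESeq2 called 2.14% of all genes. At an unadjusted p under 0.05 there were 2 members, against 10.9% of all genes. They were Psmd6, a lid subunit, with 102, 105 and 118 CPM in cKO and 129, 114 and 124 CPM in control (log2 fold change -0.18, edgeR adjusted p = 0.435), and Psmg3, with 11.1, 10.9 and 12.8 CPM in cKO and 15.4, 13.3 and 13.9 CPM in control (log2 fold change -0.29, edgeR adjusted p = 0.435). Psmg3 did not overlap between groups and Psmd6 did. Besides Psmg3 and Psme2, only Psmc1 of the tested members had cKO and control libraries apart, all 3 lower in cKO, and 0 were apart in the other direction; over all 15781 tested genes 1385 were apart and lower and 1345 apart and higher.

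The cortex members leaned down as a list, but 1 library carried the lean. The median log2 fold change was -0.08 (37 of 44 negative), against 0.003 over all 15781 tested genes (7782 negative). Control library 1 was the highest of the 6 cortex libraries in 37 of the 44 members, and without it the median was -0.006. How often that library was the highest over all genes was not counted, so this may not be particular to the members. Psmb4, the highest core beta gene per length, shows the pattern: it had 146, 145 and 168 CPM in cKO and 199, 151 and 159 CPM in control cortex. Without the Ttr-rich libraries cKO 3 and control 2 the median was -0.15, still with 0 calls. By Ddx3y, cKO 3, control 2 and control 3 were male (110, 104 and 101 CPM), so control library 1 was the only female control. With sex as a covariate 0 members and 0.0760% of all genes were called. Of the marker lists, only the sum of 5 oligodendrocyte-lineage genes lay apart, at 210 to 217 CPM in cKO and 248 to 266 CPM in control. All 5 had a negative log2 fold change, and edgeR called 1 of them lower (adjusted p = 0.0213). Gpr17 had 15.5, 15.6 and 13.7 CPM in cKO and 26.3, 25.9 and 24.2 CPM in control. The 4 meningeal genes summed to 104 to 164 CPM in cKO and 17.5 to 148 CPM in control, with the low end in control library 2. The 5 erythroid genes summed to 8.57 to 15.8 CPM in cKO and 9.37 to 45.7 CPM in control, with the high end in control library 1. Both of these lists overlapped between the groups. The part of the lists in the member values was not tested.

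The extremes of the other cortex classes were within their spread. Psmc3 had 121, 125 and 134 CPM in cKO and 162, 129 and 134 CPM in control (log2 fold change -0.16 ± 0.09 SE), and Psmc5 had 103, 108 and 109 CPM in cKO and 120, 91.7 and 102 CPM in control (0.03 ± 0.09 SE). Psma2 was at 110, 105 and 116 CPM in cKO and 126, 101 and 104 CPM in control, Psmd9 at 33.9, 32.9 and 36.9 CPM in cKO and 35.2, 29.5 and 30.6 CPM in control, and Psmg2 at 20.1, 22.6 and 23.7 CPM in cKO and 25.6, 18.5 and 19.5 CPM in control. All of these overlapped between groups.

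Levels of the constitutive subunits were compared per length, as TMM-scaled CPM per kb of merged exons. In knockdown NPC the 14 constitutive core genes (without Psma8) lay between 30.6 (Psma3) and 108 (Psma6) CPM per kb, and in control NPC between 36.6 (Psma3) and 127 (Psma6). The 17 regulatory genes lay between 20.2 (Psmd11) and 131 (Psmc1) CPM per kb in knockdown NPC and between 23.0 (Psmd11) and 131 (Psmc1) in control NPC. In control NPC the order at the top was Psmc1 (131 ± 3.06), Psma6 (127 ± 1.64), Psmd2 (115 ± 2.11), Psmc5 (114 ± 2.20) and Psmb4 (114 ± 5.16 CPM per kb, SD, n = 3 each), and the last 3 did not differ beyond their spread. The ratio of the highest to the lowest core gene was 3.48 by exon length and 4.93 by coding length, with Psmb4 and Psmb5 at the ends in the second case, so the order depends on the length used.

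Among the activators and the inhibitor, Psme3 had the highest level per length in each of the 4 groups. In control NPC Psme3 stood at 61.2 CPM per kb, above Psme4 (16.7), Psme2 (15.2), Psme1 (10.1) and the inhibitor Psmf1 (5.98). In knockdown NPC it stood at 25.0, under the lowest constitutive core gene of that group by exon length (Psma3, 30.6). By coding length this did not hold. There Psme3 had 100, 91.6 and 97.8 CPM per kb in knockdown NPC, above the core gene Psmb5 at 50.2, 54.7 and 59.4. By exon length, cortex had Psme3 at 30.1 in cKO and 30.4 in control, and Psme1 at 26.2 in cKO and 28.0 in control. For Psme1 these compare with 9.39 in knockdown and 10.1 in control NPC. Microglial markers differed between the systems too: 7 genes (of which Aif1 was listed at 0 in every cortex library) summed to 62.1 to 64.5 CPM in cKO and 49.4 to 69.7 CPM in control cortex, against at most 1.67 CPM in any NPC library; their part in the Psme1 level was not tested.

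**Figure D4:**
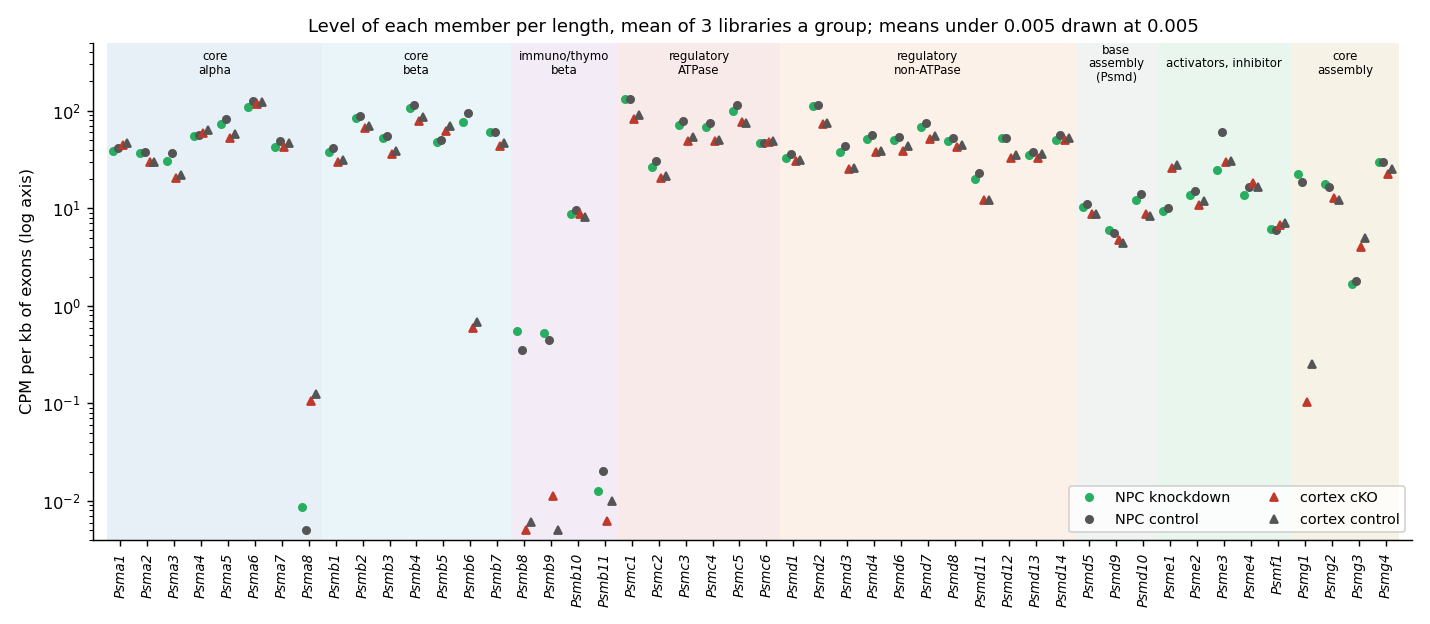
TMM-scaled CPM per kb of exons (log axis) for each of the 48 members, as the mean of 3 libraries in knockdown and control NPC (circles) and cKO and control cortex (triangles), ordered by class. Most constitutive subunits lie between about 20 and 130 in all 4 groups, whereas Psmb6 and Psmg1 lie far lower in cortex and Psmb8, Psmb9, Psmb11 and Psma8 are near the bottom.

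Psmb6 and Psmg1 had almost no counts in cortex. Psmb6 had 37, 28 and 51 counts in cKO and 59, 31 and 44 counts in control cortex, against 3787 to 5189 counts in the NPC libraries, and thus 0.594 CPM per kb in cKO and 0.677 in control cortex. The other 13 constitutive core genes had 20.7 to 117 CPM per kb in cKO and 22.1 to 122 in control cortex. Psmg1 had 8, 4 and 2 counts in cKO and 28, 5 and 3 counts in control cortex, against 662 to 1016 counts in NPC. Beta1 is part of every constitutive core particle, and the listed cortex counts of Psmb6 lie far under those of its partner genes.

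The genes around these members were low in cortex as well. Of the 14 genes within 400 kb of Psmb6 that had at least 5 CPM in NPC, 12 were more than 10 times lower in cortex. They include the actin-binding profilin gene Pfn1, used by nearly all cells, with 1.51 CPM in cKO and 1.72 CPM in control cortex, and 316 CPM in knockdown and 330 CPM in control NPC. The same held for 3 of 3 neighbours of Psmg1, 22 of 22 of Psmb8 and 21 of 21 of Psmb9, among them the ribosomal protein gene Rps28 at 0.0747 CPM in cKO and 0.164 CPM in control cortex, and 153 CPM in knockdown and 152 CPM in control NPC. Psmb8 and Psmb9 lie in the same stretch, and the 21 neighbours of Psmb9 are all among the 22 of Psmb8. No member besides Psmb6, Psmg1, Psmb8 and Psmb9 had 3 or more such neighbours. Among all genes, 5.10% of the 10790 genes with at least 5 CPM in NPC were that low. How the cortex reads were counted in these stretches was not tested, so the cortex counts of Psmb6, Psmg1, Psmb8 and Psmb9 are given as listed and not as a level of the gene.

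**Figure D5:**
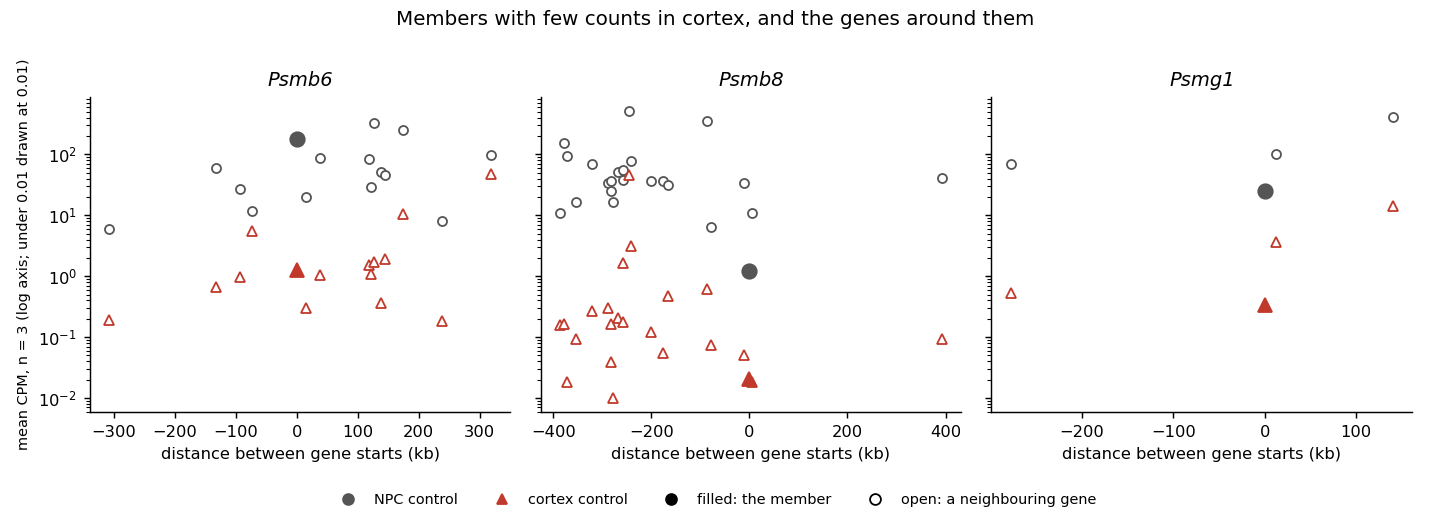
Mean CPM (log axis, n = 3) of Psmb6, Psmb8 and Psmg1 (filled) and of the genes within 400 kb of each (open), against the distance between gene starts in kb, in control NPC (circles) and control cortex (triangles). Around all 3 members most neighbours are far lower in control cortex than in control NPC.

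Psme3 and Psmb6 share a short motif in the 3′ UTR, printed here because they are the 2 members called without pairs. The hexamers ACCGAC and CCGACT had been singled out on these same libraries, so their presence in genes that fell is a description. They were searched on the transcript strand in annotated 3′ UTRs of at least 50 bases. Capitals mark the hexamer.
Psmb6, chr11:70527605-70527634, plus strand, exon 6 of 6: aggatggtccatACCGACgcagaagctaat
Psme3, chr11:101321903-101321932, plus strand, exon 11 of 11: gtctggctcaagACCGACattgccttggtt
Psmd7, chr8:107580651-107580680, minus strand, exon 7 of 7: tggctcaggtgtCCGACTtcatgaggagaa
These were the 3 of 45 searched members (6.67%) with either hexamer, against 11.8% of 12676 tested genes. In Psmb6 the site begins at base 38 of a 70-base UTR and in Psme3 at base 43 of 1665. Psmd7, a lid subunit, was not called, with 139, 154 and 174 CPM in knockdown NPC and 167, 178 and 170 CPM in control NPC (log2 fold change -0.14, edgeR adjusted p = 0.106). Among all genes called with pairs, 26.6% of 1782 lower and 7.37% of 1628 higher genes carried a hexamer, and among those called without pairs 53.9% of 217 lower and 0 of 50 higher genes. The other 10 members called lower with pairs carried neither.

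Proteasome genes are known to respond together to the factor Nfe2l1 through antioxidant response elements, so promoters were searched for TGACNNNGC on both strands. RefSeq promoter windows of build GRCm38.p6, which run from 250 bases before to 50 after the start site, were matched for 40 members by symbol. The motif was in 6 of them (15.0%), against 14.0% of 27025 genes. It was in 2 of the 11 called-lower members with a window, shown with the motif in capitals as the sequence of the gene's own strand.
Psmb6, chr11:70525338-70525366, plus strand: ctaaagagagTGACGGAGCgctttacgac
Psme4, chr11:30771758-30771786, plus strand, motif on the opposite strand: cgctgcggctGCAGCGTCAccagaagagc
The share in members is close to the share in all genes, and a match of letters is a description only.

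The control genes of the pathway were read from 4 lists. Over all tested genes 12.8% fell and 11.9% rose in knockdown NPC with pairs. In the list of transcriptional control, 4 of 9 tested genes fell and 0 rose. They were Nploc4, a cofactor of the segregase that frees Nfe2l1 (116, 110 and 121 CPM in knockdown NPC and 141, 144 and 148 CPM in control NPC, log2 fold change -0.32, edgeR adjusted p = 0.000493), Mafg (-0.31, edgeR adjusted p = 0.000586) and Maff (-0.36, edgeR adjusted p = 0.0242), small Maf partners, and Ddi2, the protease that activates Nfe2l1 (-0.25, edgeR adjusted p = 0.00590). Nfe2l1 itself had 217, 262 and 255 CPM in knockdown NPC and 233, 250 and 259 CPM in control NPC, with overlap and a log2 fold change of -0.02 (edgeR adjusted p = 0.854). None of the 4 calls held without pairs, where Nploc4 was nearest at an edgeR adjusted p of 0.0511.

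The ubiquitin list gave 3 lower and 0 higher genes of 13 in knockdown NPC, against 12.8% and 11.9% of all genes. Ubqln1, a shuttle that carries ubiquitinated proteins to the proteasome, had 165, 167 and 166 CPM in knockdown NPC and 250, 263 and 261 CPM in control NPC (log2 fold change -0.64 ± 0.05 SE, edgeR adjusted p = 1.50e-06 with pairs and 0.00555 without), a wide gap with no overlap. The autophagy receptor Sqstm1 stood at -0.39 (edgeR adjusted p = 0.000111) and Uba1, the main ubiquitin-activating enzyme, at -0.24 (edgeR adjusted p = 0.00249), both with pairs; without pairs the edgeR adjusted p was 0.249 for Sqstm1 and 0.0880 for Uba1. Among 8 further subunits and associated enzymes, Ube3c, a ligase that extends chains on the proteasome, rose to 165, 163 and 163 CPM in knockdown NPC, against 118, 104 and 107 CPM in control NPC (log2 fold change 0.58 ± 0.05 SE, edgeR adjusted p = 6.16e-06 with pairs and 0.00856 without). Uchl5, a proteasome deubiquitinase, was also called higher (0.22, edgeR adjusted p = 0.0223) and Zfand5 called lower (-0.15, edgeR adjusted p = 0.0441), both with pairs; without pairs the edgeR adjusted p was 0.184 for Uchl5 and 0.369 for Zfand5.

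Of 10 antigen presentation and interferon genes tested in NPC, 3 were called higher and 1 lower with pairs, and 0 without. Over all genes 11.9% were called higher and 12.8% lower with pairs, and 1.89% in either direction without. H2-K1 had 63.4, 48.2 and 41.1 CPM in knockdown NPC and 44.6, 32.1 and 33.5 CPM in control NPC (log2 fold change 0.46, edgeR adjusted p = 0.000256), higher in each pair though the groups overlapped. H2-D1 (0.25, edgeR adjusted p = 0.0358) and the factor Irf1 (0.32, edgeR adjusted p = 0.0414) followed, and Nlrc5, the activator of class I genes, was lower (-0.63, edgeR adjusted p = 0.0116). In cortex edgeR called 0 genes of these lists and DESeq2 called 1, Nfe2l2, among 8 further subunits, 9 control genes, 12 ubiquitin genes and 5 antigen presentation genes that passed the filter on low counts. Over all genes edgeR called 0.171% and DESeq2 called 2.14% in cortex. Bag6, Tap1, Tap2, Tapbp, H2-K1 and H2-D1 had almost no listed cortex counts and were not tested there. Nfe2l2, a stress-response factor related to Nfe2l1, had 14.3, 14.7 and 16.0 CPM in cKO and 9.20, 8.79 and 9.58 CPM in control cortex (log2 fold change 0.71, adjusted p = 0.0587 by edgeR and 0.000222 by DESeq2), all cKO libraries above all controls; its difference from NPC was called (edgeR adjusted p = 0.000844).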

How the data were processed

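Total RNA of 6 cortex and 6 NPC samples was sequenced. Per the submitters' processing notes, reads were aligned with HISAT2 (version not given in the sources used here) to mm10. The deposited values are raw counts per gene and library; no label or header names the counting program, its annotation or its strand setting. Reads of overlapping genes can therefore not be assigned by strand: 22 members overlap another annotated gene, 18 of them one on the other strand and 11 a protein-coding one. With 3 libraries a group, precision is limited by the spread between libraries. The labels do not say whether cortex replicates were separate animals, nor whether NPC replicates were separate cultures, so p-values measure the spread between these samples.

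Counts were normalised by TMM and filtered by filterByExpr, and each comparison was fitted with glmQLFit and glmQLFTest of edgeR 4.0.16 (R 4.3.3) on its own 6 libraries, over all genes that passed. The between-system contrast used all 12. A call meant p under 0.05 after Benjamini-Hochberg adjustment. The rule that chose the members asked for same-numbered NPC pairs, so NPC fits keep the replicate number as a block. Calls lost without it are named. Within-group deviations of libraries with the same number correlated in NPC (0.48, 0.50 and 0.44) and not in cortex (0.02, -0.16 and -0.02). The filter kept 44 members in cortex (not Psmb8, Psmb9, Psmb11 and Psmg1), 46 in NPC (not Psma8 and Psmb11) and 47 between systems (not Psmb11). CPM are TMM-scaled within each system, while those of marker lists, Ttr, Ddx3y and neighbouring genes use library totals. Exon and coding lengths (longest coding sequence) and UTRs came from GENCODE release M21, with 48 of 48 members matched. DESeq2 1.42.0, RLE size factors, no count filter, 1 fit of all libraries, sex and library exclusions were tried; leaving out libraries in the between-system contrast was added after seeing the data. The procedure was also run on simulated counts. These held no pair effect and no difference in level between the systems, so they cannot check how the fits handle either. Named members were the called ones with the smallest adjusted p, the extremes of each class, the immunoproteasome and activator genes and those failing the filter; Psmb4, Psmb5, Psmd2, Psmd7, Pfn1 and Rps28 were added after their values were seen. Members and lists were chosen with earlier results of these data known. Figures used matplotlib 3.10.9 under Python 3.11.15.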

Additional observations from a re-analysis of the deposited data

Results flagged for a closer look

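Psme3 was singled out because its response differed between the systems by a test of the difference itself. The log2 difference, NPC knockdown over control minus cortex cKO over control, was -1.27 (edgeR adjusted p = 3.02e-05), with -1.30 in NPC and -0.02 in cortex, and all 3 NPC pairs lower. It lay between -1.34 and -1.24 over the 13 other settings run, with edgeR or DESeq2 adjusted p from 6.72e-34 to 0.000781. The systems also differ in cell mix and in how Srsf10 was targeted, which cannot be told apart here.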

How the results depend on the processing

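The number of members called in NPC was 13 with the replicate block (the pairs kept), 2 with no replicate block, 1 (Psme3) in 1 fit of all 12 libraries, and 3 to 14 when each pair was left out (shares of all genes called: 24.7%, 1.89%, 9.55% and 11.4 to 30.4%); with no replicate block and 1 library left out it was 1 each time. RLE size factors, no count filter and DESeq2 gave 12, 14 and 11, where 24.5%, 17.5% and 17.1% of all genes were called. With no replicate block and 1 library left out, 0.324 to 2.09% of all genes were called. Between systems 2 members, Psme3 and Psme4, were called with no count filter and with DESeq2, and 1 to 2 when a cortex library or NPC pair was left out, Psme4 being called without cortex control replicate 2 (edgeR adjusted p = 0.0314). The shares of all genes called between systems were 3.87%, 8.44% and 1.60 to 5.60% in these settings. Cortex gave 0 calls in every setting run, its replicate block included, and the cortex median ran from -0.14 to -0.006 on leaving out single libraries. Coding length changed the ratio of the highest to the lowest core gene to 4.93. Among members and pathway genes in NPC, 84 alternative values lost the call and kept the direction. Signs changed only for uncalled members. In cortex, Psma2 was 0.00249 with the replicate block; without the Ttr-rich libraries Psmb10 was -0.0277, Psmc5 -0.0706, Psmd5 -0.0558 and Psmg2 -0.0803; with sex as a covariate Psmc5 was -0.00407 and Psme3 0.00374. Leaving out single cortex libraries gave ranges of -0.0637 to 0.0954 for Psma2, -0.132 to 0.0449 for Psmb1, -0.0138 to 0.290 for Psmb10, -0.380 to 0.0372 for Psmb6, -0.0537 to 0.137 for Psmc5, -0.0583 to 0.0280 for Psmd11, -0.0406 to 0.0630 for Psmd5, -0.0477 to 0.0386 for Psme3 and -0.0289 to 0.215 for Psmg2. In NPC, Psmb7 was 0.00122 with RLE, 0.00112 with DESeq2, 0.00196 with no replicate block and 0.00869 in 1 fit, and Psmc1 was 0.000476, 0.000427, 0.000538 and 0.00803 in the same settings. Leaving out pairs gave -0.0944 to 0.00369 for Psma4, -0.0564 to 0.0605 for Psmb7, -0.0514 to 0.050 for Psmc1 and -0.0515 to 0.0323 for Psmd12. The cause of these shifts was not tested. Low counts limit Psmb8 and Psmb9 in NPC, and Psma8 and Psmb11 in both systems.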
